A study of Rattus with 12 samples.

Results

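The integrated stress response and the unfolded protein response were followed through 33 genes in RNA from rat neuron-glial cultures exposed to fentanyl, a synthetic agonist of the mu-opioid receptor. The genes were picked by symbol as regulators and targets of both responses, with earlier results of these data known. All 33 are among the 17337 genes of the count table, and all 33 passed the filter on low counts that left 12271 genes to test. They fall into 8 regulators of the integrated stress response, 8 of its amino acid and one-carbon targets, 12 genes of the folding machinery of the endoplasmic reticulum (ER), and 5 genes around Xbp1 and ER-associated degradation. The 12 cultures were grown from purchased primary cells of Sprague Dawley rats, namely cortical neurons, astrocytes and oligodendrocyte precursor cells (OPCs). Cultures A, G, M and P were untreated, the low dose of 0.01 μM fentanyl was given to B, H, N and Q, and the high dose of 10 μM to C, I, O and R, each for 4 days, so that each dose had 4 cultures. The study counts 4 biological replicates for its estimates of cell types from this RNA. Neither an age of the animals nor separate cell preparations are named for the cultures of a dose, so p-values here measure the spread between cultures, which may be technical.

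In the integrated stress response, kinases that sense amino acid shortage, viral RNA, heme loss or ER stress phosphorylate the translation factor eIF2alpha, which lowers protein synthesis while the transcription factor ATF4 is translated. ATF4 then drives genes for amino acid synthesis and uptake, tRNA charging and, with DDIT3 (CHOP), cell death. In the unfolded protein response, the ER sensors IRE1, ATF6 and PERK raise chaperones and the degradation of misfolded proteins through XBP1, cleaved ATF6 and ATF4. Secretory and myelinating cells, such as oligodendrocytes, carry a high folding load. ATF4, XBP1 and ATF6 are controlled by translation, splicing and cleavage, which counts per gene do not show.

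The total count was 12059872 to 17023909 in untreated, 12907388 to 16512387 in low dose and 15102785 to 24813893 in high dose cultures. Levels are given as CPM, the count of a gene relative to the total of its library after TMM scaling. Untreated culture G stood apart from the other 11 cultures. Its neuron score, the mean of log2(CPM + 1) over 14 neuronal markers, was 4.29 against 7.53 to 8.23 elsewhere, and Rbfox3, a nuclear protein of mature neurons, had 20 counts in G and 714 to 2019 in the others. All 8 of the fibroblast and mural markers tested summed to 1919 CPM in G, 3033 CPM in low dose culture N and 73.4 to 510.1 CPM in the other 10 cultures. The 11 astrocyte, 8 OPC and 12 oligodendrocyte markers were counted in every culture. The 10 markers of microglia, which were not seeded, summed to 42.8, 52.4 and 43.2 CPM in P, Q and R and to 368 to 1571 CPM in the rest. Letters run on from each untreated culture to a low and a high dose culture (A to B and C, G to H and I, M to N and O, P to Q and R), and these 4 sets are named here by their untreated culture. Apart from G, cultures of a set resembled each other, but neither the labels nor the study's text names the sets as a batch or a pairing, so differences within them are given as values. In bulk RNA, fewer cells of a type and less RNA per cell cannot be told apart.

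None of the 33 stress genes passed the test for a difference between doses. The test was edgeR's quasi-likelihood test with 1 factor of unwanted variation. A call combined an adjusted p under 0.05 with a log2 fold change of more than 0.5, up or down. In each of 3 comparisons 0 of 33 were called, and so were 0% of all 12271 genes. The study reports calls in every comparison at these thresholds, after removing factors whose number it does not name. With 4 factors, 38 of all genes were called in high dose against untreated and 115 in high dose against low dose. In low dose against untreated 0 were called with 4 factors. The 0% holds for the fit with 1 factor, from which the following values come. Values from the 3 comparisons are given in one order throughout, with low dose against untreated, then high dose against untreated, then high dose against low dose. The comparisons share cultures pairwise and are not independent. The smallest adjusted p of a stress gene was 0.9998 (Manf), 0.9999 (Hspa5) and 0.9999 (Shmt2), and DESeq2 also called 0 of the 33 in each. At an unadjusted p under 0.05 there were 0 stress genes in low dose against untreated, where 0.742% of all genes passed, and 0 in high dose against low dose, where 1.17% passed. In high dose against untreated there were 2, Hspa5 and Manf, both higher, where 1.19% of all genes passed. All 3 shares of all genes lay below the share of 0.05 that this threshold passes where no gene differs, so the fit was conservative. No stress gene had doses whose cultures did not overlap, which was the case for 0.407%, 0.685% and 1.19% of all genes in the 3 comparisons.

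The fitted differences were small. The median log2 fold change of the 33 genes was 0.085, 0.018 and 0.0026 in the 3 comparisons, and that of all genes tested 0.013, 0.0031 and -0.0087. Only Nupr1 in low dose against untreated (0.54) and Sdf2l1 in high dose against untreated (0.51) exceeded 0.5 in size in this fit. Without the factor they were at -0.073 and 0.16, and with neither the factor nor G at 0.73 and 0.58. Without the factor, 10 of the 33 genes had the opposite sign in low dose against untreated, 8 in high dose against untreated and 0 in high dose against low dose. With neither the factor nor G, 6, 3 and 0 of the 33 had the opposite sign. The 95% interval lay within a log2 fold change of 1 in either direction for 30, 30 and 28 of the 33 genes in the 3 comparisons, and within 0.5 for 18, 11 and 16. The intervals that reached past 1 belonged to Nupr1 and Sdf2l1 in all 3 comparisons, to Chac1 in both comparisons with the low dose, to Phgdh in both with the high dose, and to Ddit4 in high dose against low dose. For these genes a 2-fold difference lay within the interval.

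**Figure D1:**
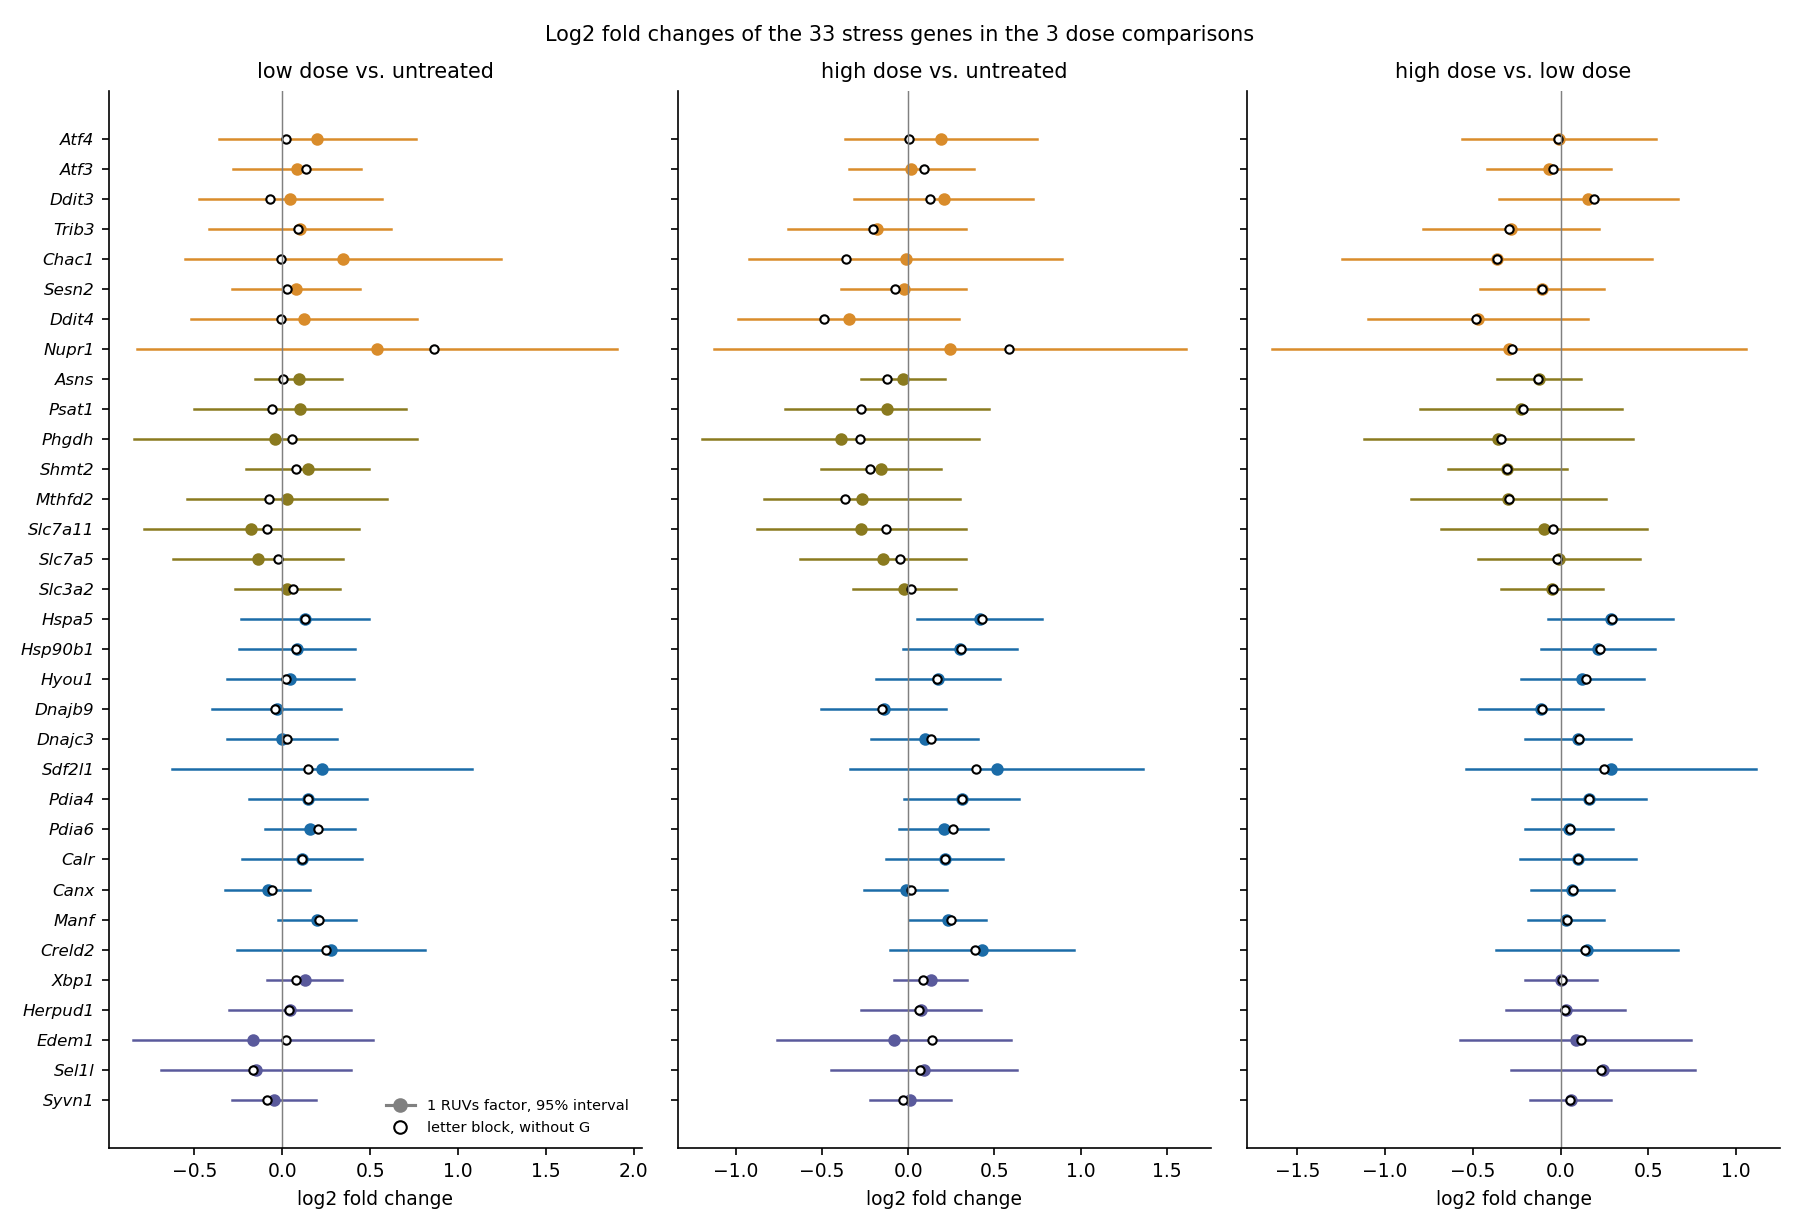
Fitted log2 fold changes (x axis) of the 33 stress genes (rows) in the 3 dose comparisons, with filled points and 95% intervals from the fit with 1 factor of unwanted variation and open points from the fit with a term for consecutive letters and without culture G. Orange marks regulators, olive amino acid and one-carbon genes, blue folding genes and violet the Xbp1 group. Most intervals cross 0, and in high dose against untreated those of Hspa5 and Manf do not.

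In the folding machinery most fitted differences at the high dose were positive and none passed the adjusted test. Of its 12 genes, 10 had a positive log2 fold change against untreated cultures (median 0.22) and 11 against the low dose (median 0.11). The 2 genes with an unadjusted p under 0.05 belong to this group. In low dose against untreated 9 were positive (median 0.12). Without the factor and with G kept, only 3 were positive there (median -0.072). In the comparison of high dose with untreated 8 were (median 0.091), and 11 in that of high with low dose (median 0.11). The mean of log2(CPM + 1) over the 12 genes was 7.65, 8.47, 7.90 and 7.65 in untreated A, G, M and P, 7.70, 7.97, 8.14 and 7.71 in low dose B, H, N and Q, and 7.63, 8.19, 8.19 and 7.98 in high dose C, I, O and R. The highest value was that of untreated G, and the 3 doses overlapped. In the fit with 1 factor all 10 microglial markers had a positive log2 fold change in high dose against untreated (median 0.89), none past the test. The 11 astrocyte markers were all negative, with a median of -0.48. Outside that fit, the sets of A, G, M and P differed in direction. The astrocyte score differed by 0.33, -0.82, -0.86 and -0.31 between high dose and untreated cultures, and the microglial score by 0.67, -0.16, 0.61 and 0.056. The part of these markers in the folding genes was not tested.

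**Figure D2:**
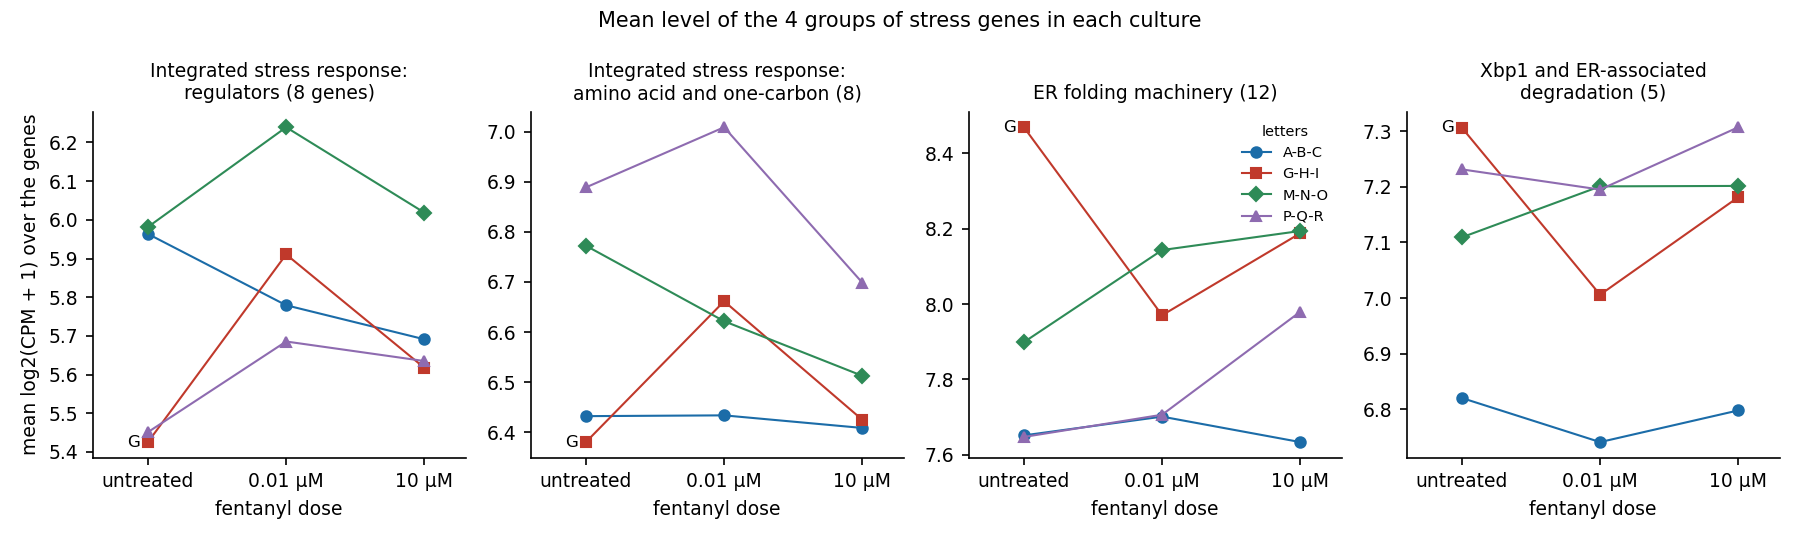
Mean of log2(CPM + 1) over the genes of each of the 4 groups (y axis, a separate range in each panel) by fentanyl dose (x axis), with 1 point per culture and lines joining the cultures of a set. Culture G is marked and has the highest folding score, 8.47, and the lowest scores of both integrated stress response groups.

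Hspa5 encodes BiP, the ER chaperone that binds unfolded proteins and holds the stress sensors inactive. Its level was 1246, 2721, 1488 and 1078 CPM in untreated A, G, M and P, 1218, 1519.7, 1999.8 and 1109.6 CPM in low dose B, H, N and Q, and 1299, 1959, 2313 and 1573 CPM in high dose C, I, O and R. G was the highest of all cultures and the remaining 11 ran from 1078 to 2313 CPM, with each dose overlapping the others. The log2 fold change was 0.41 in high dose against untreated (95% interval 0.051 to 0.78, unadjusted p = 0.0292), 0.13 in low dose against untreated and 0.28 in high dose against low dose. Both comparisons with untreated cultures depended on the factor while G was in the fit. Without the factor, the high dose difference was 0.13 and the low dose difference -0.16. With the letters as a term in its place they were 0.17 and -0.12. With neither the factor nor G, they were 0.49 (unadjusted p = 0.0748 with edgeR) and 0.20. In the sets of A, G, M and P, the high dose culture was at 1.04, 0.72, 1.55 and 1.46 times the untreated culture and at 1.07, 1.29, 1.16 and 1.42 times the low dose culture. The unadjusted p of the high dose difference was 0.687 without the factor, and it was also above 0.05 when any of the untreated cultures A (0.134), G (0.0798) and P (0.182) or the high dose cultures I (0.0723) and O (0.107) was left out. It stayed under 0.05 when any other single culture was left out. With the letters as a term, edgeR gave 0.430 with G and 0.00440 without it. It was 0.0280 with 2 factors and 0.0151 with 4 in edgeR, and 0.0147 with DESeq2.

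Manf, a neurotrophic factor that is retained in the ER and secreted under stress, measured 68.0, 112, 69.9 and 63.6 CPM in untreated A, G, M and P, 74.0, 84.0, 94.6 and 68.8 CPM at the low dose, and 68.3, 91.9, 85.4 and 83.1 CPM at the high dose. Without G, the untreated mean was 67.2 ± 3.21 CPM (SD, n = 3) against 80.4 ± 11.4 CPM at the low dose and 82.2 ± 9.97 CPM at the high dose (n = 4 each). The log2 fold change was 0.23 in high dose against untreated (0.0068 to 0.45, unadjusted p = 0.0445) and 0.20 in low dose against untreated (unadjusted p = 0.0744), the smallest p of a stress gene in the latter comparison. Without the factor these differences were 0.067 and 0.035, and with neither the factor nor G they were 0.29 and 0.26. In high dose against untreated the unadjusted p was above 0.05 without G (0.0522), and in 8 of the other 11 fits that left out a single culture, the exceptions being H, Q and C. In edgeR's fits it was 0.725 without the factor, 0.0382 with 2 factors, 0.0562 with 4, and 0.0271 with the letters as a term and without G. High dose and low dose differed by 0.030, with an interval from -0.19 to 0.25.

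Pdia4 and Pdia6 are protein disulfide isomerases, which form and rearrange disulfide bonds in the ER. Pdia4 was at 123, 258, 158 and 151 CPM in untreated A, G, M and P, at 132, 172, 204 and 154 CPM at the low dose and at 132, 212, 219 and 184 CPM at the high dose. Pdia6 was at 215, 530.1, 256 and 232 CPM in untreated cultures, at 234, 298, 334 and 252 CPM at the low dose and at 225, 316, 327 and 294 CPM at the high dose. In both genes G was the highest and A the lowest of all 12 cultures, and the doses overlapped. Pdia4 differed by a log2 fold change of 0.31 in high dose against untreated (-0.024 to 0.64, unadjusted p = 0.0657). Pdia6 differed by 0.20 in this comparison and by 0.16 in low dose against untreated. Without the factor the difference of Pdia4 was 0.11, and those of Pdia6 turned to -0.085 and -0.14. With neither the factor nor G, that of Pdia4 was 0.38 and those of Pdia6 were 0.31 and 0.25.

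The other folding genes differed in how far they ranged once G was set aside. Hsp90b1 (GRP94, an ER chaperone of the HSP90 family) ran from 874 to 1629 CPM in the 11 other cultures, with a log2 fold change of 0.30 in high dose against untreated. Calr and Canx encode calreticulin and calnexin, lectin chaperones of glycoproteins, and ran from 997 to 1499.5 and from 1262 to 1589.7 CPM, with log2 fold changes of 0.21 and -0.015. Creld2, an ER protein induced by stress, ran from 24.3 to 57.7 CPM with a difference of 0.43, and Sdf2l1, which keeps unfolded proteins soluble, from 14.8 to 55.3 CPM with a difference of 0.51. Both had intervals that covered 0, -0.11 to 0.96 and -0.34 to 1.36. Hyou1 (an ER chaperone of the HSP110 family) differed by 0.17. Dnajc3 (P58IPK, a BiP cochaperone) differed by 0.096. Dnajb9 (ERdj4, a BiP cochaperone) went the other way by -0.14.

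**Figure D3:**
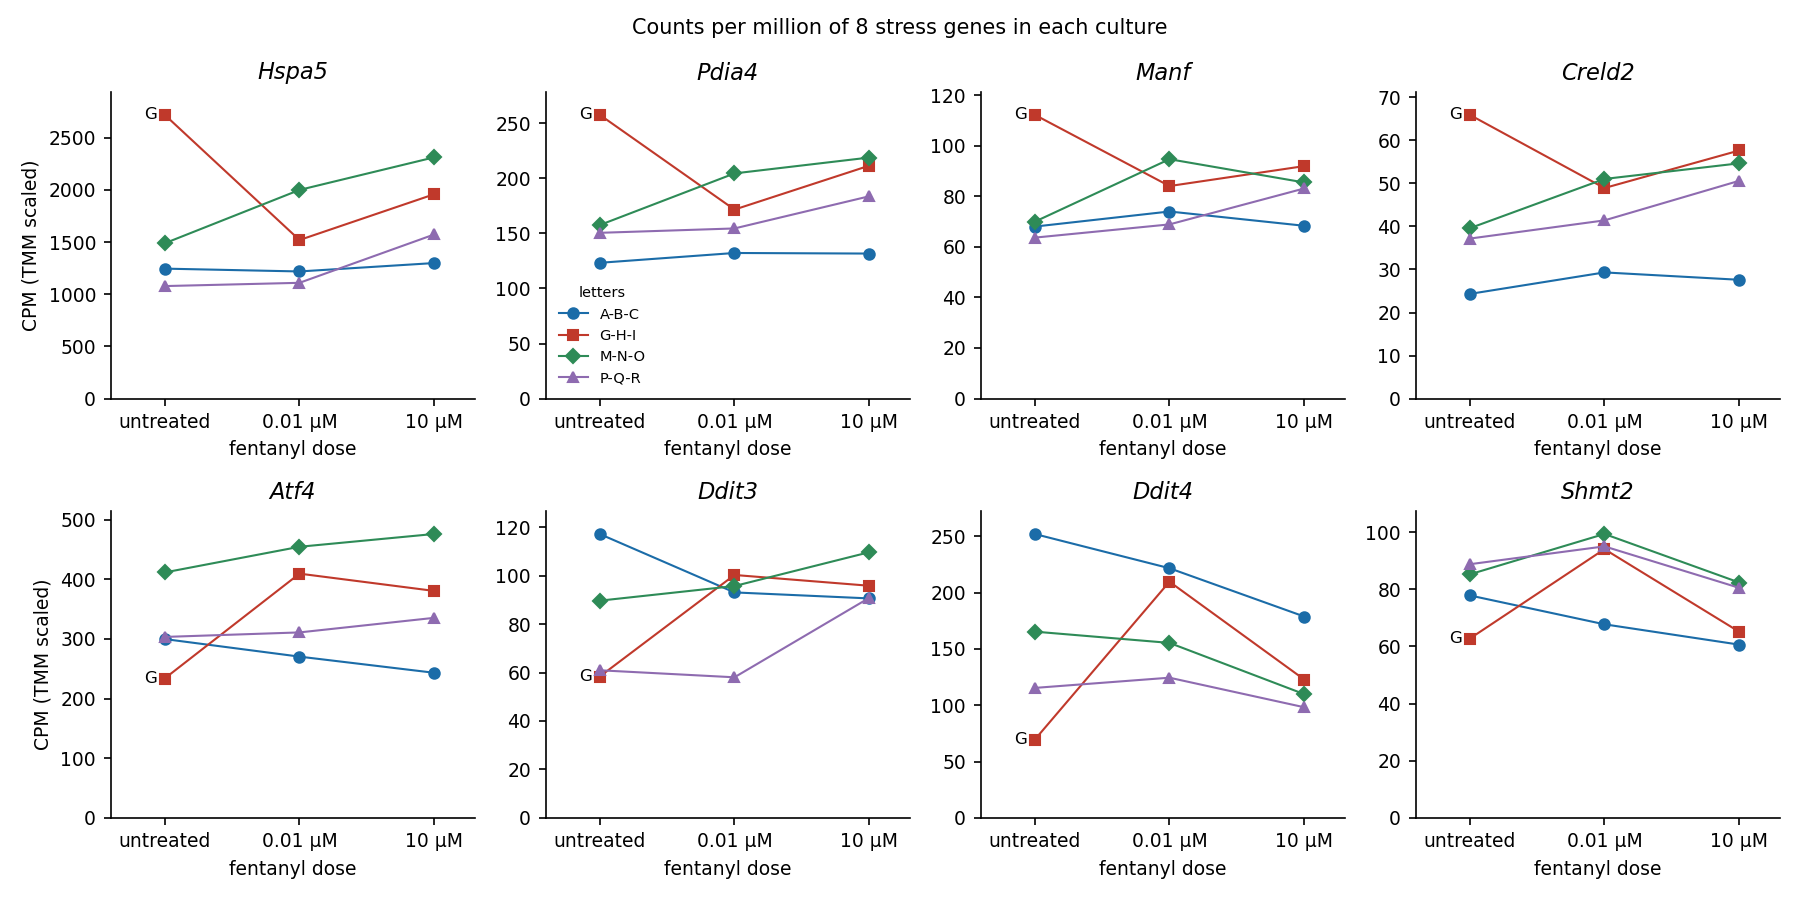
Levels in CPM scaled by TMM (y axis, from 0) of 8 stress genes by fentanyl dose (x axis), with 1 point per culture and lines joining the cultures of a set. Culture G holds the highest value of Hspa5 (2721 CPM), Pdia4, Manf and Creld2 and the lowest of Atf4 (234 CPM) and Ddit4 (69.2 CPM).

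Xbp1, the transcription factor that IRE1 activates by splicing its mRNA, was the steadiest of the hub genes. It measured 148, 150, 141 and 129 CPM in untreated A, G, M and P, 143, 169, 158 and 138 CPM in low dose B, H, N and Q, and 149, 165, 158 and 138 CPM in high dose C, I, O and R. Means were 142 ± 9.46, 152 ± 14.3 and 153 ± 11.8 CPM (SD, n = 4), and the doses overlapped. The log2 fold change was 0.13 (unadjusted p = 0.210) in low dose against untreated, 0.13 (-0.081 to 0.34) in high dose against untreated and 0.0026 (-0.20 to 0.21) in high dose against low dose. Of the ER-associated degradation genes, Herpud1, a membrane component of the degradation complex, ran from 82.5 to 129.8 CPM, and Edem1, which directs glycoproteins to degradation, from 54.4 to 122 CPM outside G, where it reached 203 CPM. Sel1l and Syvn1, the adaptor and the ubiquitin ligase (HRD1) of that complex, ran from 267 to 507 and from 73.2 to 95.8 CPM. The 5 genes had median log2 fold changes of -0.046, 0.075 and 0.058, and all 5 were positive in high dose against low dose.

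Atf4, the hub of the integrated stress response, was at 299.9, 234, 412 and 303 CPM in untreated A, G, M and P, at 270.4, 409.6, 455 and 311 CPM in low dose B, H, N and Q, and at 243, 381, 476 and 336 CPM in high dose C, I, O and R. The lowest value was that of G, and outside it cultures followed their letters more than their dose, with M, N and O at the top and A, B and C at the bottom of the range. Log2 fold changes were 0.20, 0.19 and -0.0095, with an interval from -0.37 to 0.75 in high dose against untreated. Without G, the letters held 91.4% and the doses 1.16% of the variance of log2(CPM + 1) of Atf4.

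Ddit3 encodes CHOP, a transcription factor induced under prolonged ER stress. It was at 117, 58.3, 89.7 and 61.0 CPM in untreated cultures, at 93.1, 100.3, 95.7 and 58.1 CPM at the low dose and at 90.6, 95.9, 109.7 and 90.9 CPM at the high dose. The 4 high dose cultures spanned the narrowest range, 90.6 to 109.7 CPM, inside that of the untreated cultures. Log2 fold changes were 0.045, 0.20 and 0.16, and in high dose against untreated its interval ran from -0.31 to 0.72. Ddit3 overlaps Mars, a methionyl-tRNA synthetase gene, in the current rat assembly, and without a stated strand setting reads of overlapping genes cannot be told apart. The same holds for Shmt2 with Ndufa4l2, Creld2 with Alg12, Syvn1 with Mrpl49 and Atf3 with Fam71a.

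Ddit4 (REDD1), an inhibitor of mTORC1 signalling, had a lower level at the high than at the low dose in each of the 4 sets. It measured 252, 69.2, 165 and 115 CPM in untreated A, G, M and P, 222, 209.7, 155 and 124 CPM in low dose B, H, N and Q, and 179, 123, 109.8 and 98.2 CPM in high dose C, I, O and R. The high dose was at 0.81, 0.59, 0.71 and 0.79 times the low dose in the sets of A, G, M and P, while the ranges of the doses overlapped. The fitted difference from the low dose was -0.47 on the log2 scale (-1.10 to 0.15, unadjusted p = 0.125), and that from untreated cultures -0.35. With 4 factors of unwanted variation Ddit4 passed the adjusted test in high dose against low dose (-0.51, adjusted p = 0.0151 with edgeR), the only call of a stress gene under any alternative, in a fit that called 115 of all 12271 genes. Its adjusted p in high dose against untreated was 0.0501 in that fit.

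The remaining regulators had differences of either sign at the high dose. Chac1, which degrades glutathione and is a sensitive ATF4 target, had 4.22 CPM in G and 18.7 to 59.5 CPM elsewhere, with a log2 fold change of 0.35, -0.016 and -0.36 in the 3 comparisons. Nupr1, a stress-induced nuclear protein, had 70.6 CPM in G, 65.0 CPM in N and 4.66 to 36.1 CPM in the other cultures, and its interval in low dose against untreated ran from -0.83 to 1.91. Atf3, an activating transcription factor downstream of ATF4, was at 67.0 CPM in G and at 21.7 to 41.2 CPM elsewhere. Sesn2, a leucine sensor that restrains mTORC1, ran from 90.8 to 138 CPM outside G, where it was at 68.2 CPM. Trib3, a pseudokinase that feeds back on ATF4, was low in all cultures at 4.91 to 9.63 CPM. Of the 8 regulators, 8 were positive in low dose against untreated (6 without the factor), 4 in high dose against untreated and 1, Ddit3, in high dose against low dose, with medians of 0.11, 0.0009 and -0.19.

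The amino acid and one-carbon genes had negative fitted differences at the high dose, of which none passed the adjusted test. All 8 had a negative log2 fold change at the high dose, against untreated cultures (median -0.15) and against the low dose (median -0.17), and 0 of the 8 reached an unadjusted p under 0.05. Without the factor, Asns and Psat1 were positive against untreated cultures, and with neither the factor nor G they were at -0.14 and -0.24. At the low dose 5 were positive against untreated cultures (median 0.028). Both comparisons share the high dose cultures, so these counts are not independent of each other. Before any fit, the mean of log2(CPM + 1) over the 8 genes was not lower in every set. High dose and untreated cultures differed by -0.024, 0.044, -0.26 and -0.19 in the sets of A, G, M and P. Neuronal markers were higher at the high dose in the fit with 1 factor, with all 14 positive and a median of 0.55 in high dose against untreated. Outside that fit, the neuron score of high dose and untreated cultures differed by 3.91 in the set of G, and by -0.091, 0.0042 and 0.18 in the sets of A, M and P. Its mean was 7.04 in untreated cultures, 7.96 in untreated cultures without G and 8.04 at the high dose. The part of neuronal markers in the amino acid genes was not tested.

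Shmt2, the mitochondrial serine hydroxymethyltransferase that feeds one-carbon units to folate, had the smallest p of a stress gene in high dose against low dose. It was at 77.8, 62.7, 85.2 and 88.7 CPM in untreated A, G, M and P, at 67.7, 94.0, 99.3 and 94.99 CPM in low dose B, H, N and Q, and at 60.6, 65.1, 82.3 and 80.5 CPM in high dose C, I, O and R. The high dose was at 0.90, 0.70, 0.83 and 0.85 times the low dose in the 4 sets, and the log2 fold change was -0.30 (-0.64 to 0.038, unadjusted p = 0.0762). Mthfd2, the next mitochondrial folate enzyme, was at 0.88, 0.76, 0.90 and 0.77 times the low dose, with a log2 fold change of -0.30 and a range of 14.5 to 34.5 CPM over all cultures.

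Asns, the asparagine synthetase and a classical ATF4 target, was at 70.3 CPM in G and at 114 to 144 CPM in the 11 other cultures. Its high dose mean was 123 ± 6.64 CPM (SD, n = 4), its low dose mean 134 ± 10.2 CPM (n = 4) and its untreated mean without G 135 ± 1.70 CPM (n = 3). Phgdh and Psat1, which catalyse the first steps of serine synthesis, ran from 55.1 to 155 and from 53.4 to 209 CPM, and their log2 fold changes in high dose against low dose were -0.36 and -0.22. Slc7a11, the cystine importer, differed by -0.27 in high dose against untreated. Slc7a5 and Slc3a2, the light and heavy chains of the large neutral amino acid transporter, had the smallest differences of the 8 from high to low dose, -0.0084 and -0.050.

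Culture G held the extreme value of many stress genes. In it, 14 of the 33 stress genes were higher and 6 lower than in any other culture, where 27.7% and 28.4% of all genes tested were. The 14 held 10 of the 12 folding genes, and the 6 held 4 of the 8 regulators and 2 of the 8 amino acid genes. Its levels were 1.83 times the median of the other cultures for Hspa5, 2.07 times for Pdia6 and 1.96 times for Dnajc3, and 0.11 times for Chac1, 0.45 times for Ddit4 and 0.53 times for Asns. Leaving G out of the fit with 1 factor left 0 stress genes past the adjusted test and changed which passed at an unadjusted p under 0.05 in high dose against untreated, from 2 that were higher to 2 that were lower.

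A fit with a term for the sets of letters in place of the factor, and without G, also had 0 stress genes past the adjusted test, which 0%, 0.122% and 0.113% of all genes passed in the 3 comparisons. The smallest adjusted p of a stress gene with edgeR was 0.644 (Nupr1), 0.117 (Ddit4) and 0.0859 (Ddit4). At an unadjusted p under 0.05 in high dose against untreated, 9 of 33 (27.3%) were higher, where 5.76% of all genes were, and 4 of 33 (12.1%) were lower, where 3.67% were. The 9 were Hspa5, Hsp90b1, Sdf2l1, Pdia4, Pdia6, Calr, Manf and Creld2 of the folding machinery, together with Nupr1, and the 4 were Ddit4, Chac1, Shmt2 and Mthfd2. The fitted log2 fold change was 0.43 for Hspa5, 0.39 for Creld2 and -0.49 for Ddit4.

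In the other comparisons of that fit the counts were smaller. In high dose against low dose 4 of 33 were higher at an unadjusted p under 0.05, Hspa5, Hsp90b1, Sdf2l1 and Sel1l, where 7.75% of all genes were, and the same 4 as above were lower, where 5.85% were. In low dose against untreated 3 were higher, Nupr1, Pdia6 and Creld2, where 4.35% of all genes were, and 0 were lower, where 3.19% were. With G kept and the letters as a term, 0 stress genes passed at an unadjusted p under 0.05 in high dose against untreated. Microglial markers were also higher without G, with 8 of 10 at an unadjusted p under 0.05 in high dose against untreated and a median log2 fold change of 0.79, and their part in the folding genes was not tested. In P and R, where the 10 microglial markers summed to 42.8 and 43.2 CPM, Hspa5 was 1.46 times, Creld2 1.35 times and Manf 1.30 times as high at the high dose as without fentanyl.

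Differences within the sets of letters were then counted by direction. Without the set of G, 11 of 33 were higher at the high dose than in the untreated culture in all 3 remaining sets, namely the 8 folding genes above with Nupr1, Atf3 and Xbp1, where 15.1% of all genes were, and 5 were lower, namely Ddit4, Chac1, Asns, Shmt2 and Mthfd2, where 14.5% were. For the low dose, 9 were higher than the untreated culture in all 3 sets, where 13.9% of all genes were, and 1, Sel1l, was lower, where 13.7% were. High dose against low dose, which does not involve G, had 4 genes higher in all 4 sets, Hspa5, Hsp90b1, Sel1l and Syvn1, where 11.7% of all genes were, and 5 lower, Ddit4, Chac1, Shmt2, Mthfd2 and Trib3, where 11.1% were. The sizes differed between sets. The folding score differed by -0.018, 0.30 and 0.33 between high dose and untreated cultures in the sets of A, M and P, so that it was near 0 in the set of A.

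**Figure D4:**
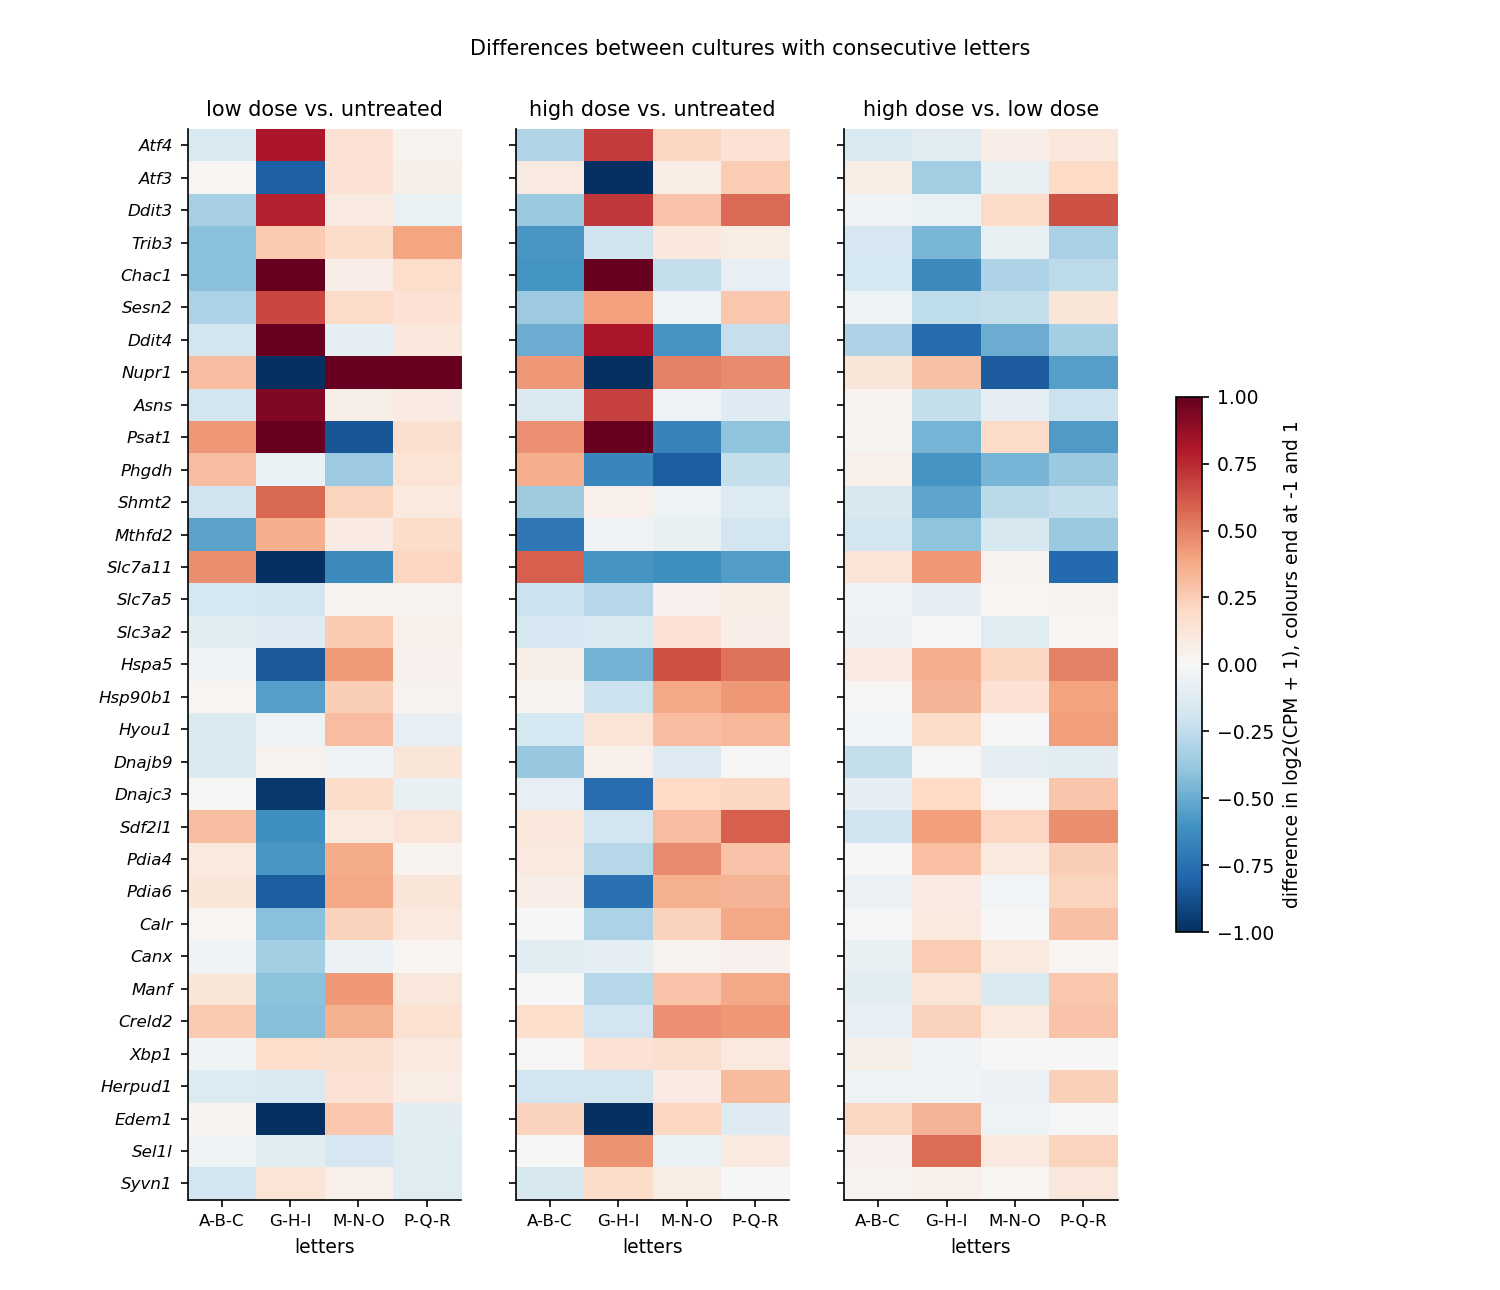
Differences in log2(CPM + 1) between cultures of a set (columns, labelled by their 3 letters) for the 33 stress genes (rows) in the 3 comparisons, with red for higher and blue for lower and colours ending at -1 and 1. In both comparisons with untreated cultures the column of G runs opposite to those of M and P for Hspa5, Pdia4, Pdia6 and Creld2, and the row of Ddit4 in high dose against low dose is blue in all 4 columns.

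Letters took a larger share of the variance than dose in 32 of the 33 genes when G was left out, as in 93.8% of all genes tested, with a median of 74.1% for the letters and 11.6% for the doses, against 75.3% and 7.96% over all genes tested. The shares of letters and doses need not add up to the whole with an unequal number of cultures. The median share of the doses was 22.7% in the folding machinery, 9.47% in the regulators, 8.19% in the amino acid genes and 5.20% in the Xbp1 group. Asns, with 44.7% for the doses and 26.7% for the letters, was the exception, and Manf followed with 40.2% for the doses.

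Other genes of the same pathways were read from lists of sensors, targets and heat shock proteins, and none passed the adjusted test with edgeR. Of 22 sensors and effectors of both responses, such as the eIF2alpha kinases, 8 were positive in low dose against untreated and 8 in high dose against untreated, with medians of -0.033 and -0.031. Of 40 further targets of the integrated stress response, 17 were positive in high dose against untreated and 15 in high dose against low dose, with medians of -0.030 and -0.050. Stc2, a secreted stanniocalcin, was the only one at an unadjusted p under 0.05 in edgeR's fit, with a difference of -0.87 in high dose against low dose. It was at 17.5, 26.0, 35.7 and 18.8 CPM in low dose B, H, N and Q and at 17.1, 10.5, 13.4 and 14.5 CPM in high dose C, I, O and R. Of 38 further targets of the unfolded protein response, 12 were positive in high dose against untreated and 11 in high dose against low dose, with medians of -0.060 and -0.034, beside 10 and 11 of the 12 folding genes above.

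Of 12 cytosolic heat shock genes, which answer unfolded proteins outside the ER, 9 were positive in high dose against untreated and their median was 0.17. Hspb1, the small heat shock protein HSP27, was the only one at an unadjusted p under 0.05 there, with a difference of 0.80, and it was at 167, 187, 235 and 141 CPM in untreated A, G, M and P and at 175, 289, 448 and 286 CPM in high dose C, I, O and R. Without G and with the letters as a term, Hspb1 and Bag3, a cochaperone of HSP70, were higher at an unadjusted p under 0.05 in both comparisons with untreated cultures. In the same fit 7 of the 40 further integrated stress response targets were lower and 1 higher in high dose against untreated, and 8 lower and 1 higher in high dose against low dose. Of all genes in that fit, 3.67% were lower and 5.76% higher in the former and 5.85% and 7.75% in the latter. Those with the smallest p in the latter were Psph (-0.34), Slc7a3 (-0.28), Stc2 (-0.81), Sars (-0.21) and Gpt2 (-0.23), genes of serine synthesis, cationic amino acid uptake, secreted signalling, tRNA charging and alanine synthesis. In the former they were Vldlr (-0.21), Slc1a5 (0.65), Slc7a3 (-0.23), Gpt2 (-0.28) and Got1 (-0.18). In low dose against untreated, Eprs (-0.18), Vldlr (-0.15) and Slc7a1 (-0.22) were lower and Eif4ebp1 (0.36) was higher. Of the 22 sensors and effectors, Wfs1 and Creb3l2 were higher in high dose against low dose (0.28 and 0.27), Ppp1r15b was lower in high dose against untreated (-0.25) and Ern1, which encodes IRE1, was lower in low dose against untreated (-0.33). Of the 38 further targets of the unfolded protein response, 3 were lower and 1 higher in high dose against untreated, namely Ufm1 (-0.18), Derl1 (-0.14), Ssr3 (-0.13) and, as the higher one, the disulfide isomerase Pdia3 (0.22). In high dose against low dose 5 of them were lower and 2 higher, and those with the smallest p were Ufm1 (-0.18), Uggt1 (0.25), Edem3 (0.27), Sec61g (-0.15) and Srprb (-0.15). None of these passed the adjusted test in that fit.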

How the data were processed

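Poly(A)-enriched RNA libraries (TruSeq v2) of the 12 cultures were sequenced by the authors. After alignment by STAR to build rn6, featureCounts gave a count per gene, and the deposited values are these raw counts, before any scaling and with no strand setting stated. Of 17337 genes, 2226 had no count. The members and lists were chosen with earlier results of these data known. Samples were grouped by the dose in their labels. In R 4.3.3 with edgeR 4.0.16, counts were scaled by TMM and genes kept by filterByExpr (12271). The study names RUVseq without its procedure or number of factors, so here 1 RUVs factor was taken from the differences among cultures of a dose, with all kept genes as controls and the formula written anew. One edgeR quasi-likelihood model gave the 3 comparisons, and p-values were adjusted over the whole table (Benjamini-Hochberg). Calls follow the study's thresholds, an adjusted p under 0.05 with a change of more than 0.5 in log2, up or down. Scripts were tested on simulated counts. Values in all cultures are given for Atf4, Ddit3, Hspa5 and Xbp1 and for the 3 members with the smallest p per comparison. Genes of other lists are named at an unadjusted p under 0.05, at most 5 per list and comparison by p. Ranges, ratios and single values of other members were picked after they were seen. Alternatives were no, 2 or 4 factors, a term for consecutive letters, models without G, DESeq2 1.42.0 or its size factors, no filter or at least 10 counts in every culture, and each culture left out. Leaving out G together with 1 run of letters was added after the data were seen. Marker scores are means of log2(CPM + 1). Symbols were matched to RefSeq genes of assembly GRCr8 (33 of 33), used only for names and neighbouring genes since its build differs. No sequences or coordinates are printed.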

Additional observations from a re-analysis of the deposited data

Results flagged for a closer look

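Within a dose, 7 values of single stress genes lay far from the other 3 cultures, out of 99 groups of 4 examined (33 genes in 3 doses). The gap to the nearest culture, divided by the range of the group, exceeded Dixon's 95% critical value, which chance exceeds in about 1 in 20 groups. Of the 7, 3 were in untreated culture G, namely Asns at 70.3 CPM, Pdia6 at 530.1 CPM and Manf at 112 CPM. Low dose culture B was low in Shmt2, at 67.7 CPM, and in Syvn1, at 73.2 CPM. Low dose culture Q was low in Ddit3, at 58.1 CPM, and high dose culture R was low in Dnajb9, at 75.6 CPM.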

How the results depend on the processing

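The count of stress genes past the adjusted test was 0 in the 3 comparisons under all 26 alternatives, except 1, Ddit4, in high dose against low dose with 4 factors (-0.51). Leaving out each culture in turn gave 0 throughout. Stress genes at an unadjusted p under 0.05 in high dose against untreated numbered 2 with 1 factor, 0 without a factor, 8 with 2 factors, 10 with 4, 0 with the letters as a replicate block and 13 with the block and without G, then 14, 10, 11 and 8 when the set of A, G, M or P was also left out. Without 1 culture and with 1 factor they numbered 3 (A), 2 (G), 1 (M), 4 (P), 1 (B), 2 (H), 1 (N), 2 (Q), 7 (C), 0 (I), 0 (O) and 1 (R). Cultures of a set did not deviate together in every pair while G was in (lowest correlation across genes -0.19), and without it the 10 pairs had correlations of 0.53 to 0.91, where genes are not independent replicates. The letters were no part of the first fit because neither the labels nor the study's text names them as a pairing.

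The 18 log2 fold changes named by rule were followed under 26 alternatives, and 38 of the 468 values turned sign. The cause was not tested. Over all 33 genes, 10, 8 and 0 had the opposite sign in the 3 comparisons without the factor, 8, 8 and 0 with the replicate block, and 8, 4 and 0 with the block and without G. With 4 factors, Atf4 was -0.019 (low dose) and -0.048 (high dose) and Ddit3 -0.078 (low dose) against untreated cultures, and Xbp1 was -0.010 in high dose against low dose, where 2 factors gave -0.0024. Against untreated cultures, the low dose gave -0.16 for Hspa5 and -0.14 for Pdia6 with no factor, and -0.12 and -0.071 with the replicate block. Ddit3 in that comparison was -0.069 with the block and without G, and -0.041 with neither factor nor G. With the block, and G and the set of A left out, Atf4 was 0.021 and Xbp1 -0.014 in high dose against low dose. With the set of G left out, Atf4 was 0.013 there and Ddit3 -0.12 in low dose against untreated. With the set of M left out, Atf4 was -0.045 (low dose) and -0.091 (high dose), Ddit3 -0.15 and Hspa5 -0.0070 (low dose) against untreated. With the set of P left out, Atf4 was -0.0012 and -0.058, and Ddit3 -0.11 and -0.071, at the low and high dose against untreated. Without 1 culture, Atf4 ranged from -0.0050 to 0.36 in high dose against untreated and from -0.19 to 0.14 in high dose against low dose, Xbp1 from -0.038 to 0.060 in high dose against low dose, and in low dose against untreated Ddit3 from -0.14 to 0.33 and Pdia6 from -0.0010 to 0.26.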
